A study of Mus musculus with 4 samples.

Results

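A set of 10 genes of the neuromuscular junction was followed in ribosome profiling data from primary mouse myoblasts, among the 55573 genes of the deposited table. They encode the subunits of the muscle nicotinic acetylcholine receptor and the proteins that gather the receptor under the nerve terminal. They were taken by gene name: Chrna1, Chrnb1, Chrnd, Chrng, Chrne, Musk, Rapsn, Dok7, Lrp4 and Agrn. The set was selected on measured values, since the RPKM of these genes in the same WT and KO libraries was known when the names were chosen. Their differences between the groups are therefore a description, and no test of them is given as support.

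The muscle acetylcholine receptor is a ring of subunits around a cation channel that opens when the motor nerve releases acetylcholine. Alpha (Chrna1), beta (Chrnb1) and delta (Chrnd) subunits are joined by gamma (Chrng) in fetal and denervated muscle and by epsilon (Chrne) at the mature synapse. Agrin (Agrn), laid down by the nerve and made in other forms by many cells, binds Lrp4, which switches on the receptor kinase MuSK (Musk). Dok7 activates MuSK from inside the cell, and rapsyn (Rapsn) holds the clustered receptors to the cytoskeleton. Subunit genes are classical targets of the myogenic factors, which bind the E-box, and nuclei under the synapse also use the N-box, a site for ETS factors.

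Ribo-seq sequences the mRNA fragments that ribosomes shield from nuclease, so a level here is the density of footprints on a gene. Myoblasts came from the hind-limb muscles of 3-week-old mice and were grown for 2 days with 10 µg/ml FGF. All cultures were treated with 100 µg/ml cycloheximide, which halts elongating ribosomes, before lysis. There were 2 libraries from mice labelled WT and 2 from mice labelled eIF5A knockout, referred to as KO. The KO genotype was Pax7 CreERT2/+ with floxed eIF5A alleles, in which tamoxifen removes the translation factor only from cells that express Pax7. The controls were described as Pax7 CreERT2/+ mice in one place and as floxed mice without Cre in another, and as littermates of the KO mice. Tamoxifen is stated for the KO mice of this culture and not stated for their controls. Muscle was digested and strained, and no sorting step was described for these cultures. Nothing states whether the libraries of a group came from separate animals, so the spread between them may be technical.

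The libraries held 642429 to 704006 gene-assigned reads. Protein-coding genes took 33.9% to 41.5% of them in WT and 59.2% to 65.4% in the libraries labelled KO. Values were RPKM (reads per kilobase of gene model, scaled to library size), with library denominators that bring the median gene to a common level. Eif5a, the targeted gene, stood at 50.0 ± 21.4 RPKM in WT and 59.8 ± 0.652 RPKM in the libraries labelled KO (SD, n = 2), so footprints on it did not separate the groups. Over 6528 well-covered protein-coding genes, WT replicate 2 lay nearer to KO replicate 2 (median absolute log2 difference of 0.357) than to WT replicate 1 (0.518). WT replicate 1 also held 82 of the 88 reads of Myog, the factor that starts terminal differentiation. Results are therefore given with and without WT replicate 1 where they differ. No matched RNA-seq was analysed here, so mRNA amount and ribosome loading cannot be told apart, nor in a bulk culture can fewer cells of a type and less RNA per cell.

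In each of the 4 receptor subunits with reads, both values from libraries labelled KO lay below both WT values, as they did for 20.3% of all genes tested. The summed level of the receptor subunits was 37.4 and 34.7 RPKM in WT replicates 1 and 2. It was 6.85 and 10.2 RPKM in the libraries labelled KO. Both WT sums lay above both others. Between the WT libraries Chrng and Chrnb1 differed in opposite directions, as their values below show.

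Chrna1, the subunit that carries the principal acetylcholine binding surface, had 46 and 33 reads in WT, against 9 and 16 under the KO label. Its level was 17.4 and 15.97 RPKM in WT, against 2.26 and 4.52 RPKM under the KO label. The group means were 16.7 ± 1.01 and 3.39 ± 1.59 RPKM (SD, n = 2). With reads pooled within groups, the footprint rate was 5.05-fold lower in the libraries labelled KO, with an exact (Clopper-Pearson) 95% counting interval from 3.18 to 8.26. The log2 difference on the log2(RPKM + 1) scale was -2.06 ± 0.42 (SE, limma), and 2.72% of the genes tested had a lower one. Chrna1 was the subunit gene with the most reads. It stayed at -2.00 without WT replicate 1. Chrna1 lies on chromosome 2, from 73563215 to 73580338 on the minus strand (ENSMUSG00000027107, GRCm38, as are all positions below unless stated).

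Chrng, the fetal gamma subunit, had 18 and 6 reads in WT, against 1 and 0 under the KO label. This was 7.17 and 3.06 RPKM in WT, against 0.265 and 0 RPKM under the KO label. A count of 0 in that last library allows a level of up to 0.892 RPKM (3 reads). The ratio of pooled rates was 38.3-fold, resting on 1 read in the lower group, with a counting interval from 6.25 to 1576. The log2 difference was -2.36 ± 0.60 (SE, limma), and -1.85 without WT replicate 1. The 2 WT libraries of Chrng differed more from each other than those of Chrna1, and both lay above the libraries labelled KO. Chrng (ENSMUSG00000026253) lies on chromosome 1, from 87204657 to 87212694 on the plus strand.

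Chrnb1, the beta subunit, had 8 and 11 reads in WT, against 3 and 4 under the KO label. The levels were 5.24 and 9.22 RPKM against 1.31 and 1.96 RPKM. The pooled rate was 4.33-fold lower (counting interval 1.74 to 12.2), with a log2 difference of -1.61 ± 0.43 (SE, limma). The difference was larger, at -1.97, without WT replicate 1. Chrnb1 (ENSMUSG00000041189) lies on chromosome 11, from 69784036 to 69795943 on the minus strand.

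Chrnd, the delta subunit, had 15 and 10 reads in WT, against 9 and 10 under the KO label. The levels were 7.57 and 6.46 RPKM against 3.02 and 3.77 RPKM. Chrnd showed the smallest difference of the 4 detected subunits, with a pooled rate 2.10-fold lower (counting interval 1.11 to 4.04) and a log2 difference of -0.87 ± 0.36 (SE, limma). Raw reads were nearly the same in 3 of the 4 libraries, and the difference shrank to -0.37 on a total-read scale, on which the median of all genes tested shifted by 0.50. Chrnd (ENSMUSG00000026251) ends at 87200070 on chromosome 1, only 4586 bases before the start of Chrng on the same strand. The log2 differences of these neighbouring genes were -0.87 and -2.36, and the contrast between them was not tested.

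Chrne, the epsilon subunit of the mature synapse, had 0 reads in every library. A count of 0 allows up to 2.94 and 3.77 RPKM in WT and up to 1.96 and 2.20 RPKM in the libraries labelled KO. A level like that of Chrng in WT replicate 1 would therefore have been seen. Levels like those of Chrng in WT replicate 2 (3.06 RPKM) or under the KO label (0.265 and 0 RPKM) could have been missed. Chrne (ENSMUSG00000014609, chromosome 11, 70614883 to 70619216, minus strand) overlaps 4930544D05Rik on the other strand over 1043 bases, which also had 0 reads. How reads in such an overlap were counted was not stated. Of the exchangeable subunits, footprints were thus detected on gamma and not on epsilon.

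**Figure D1:**
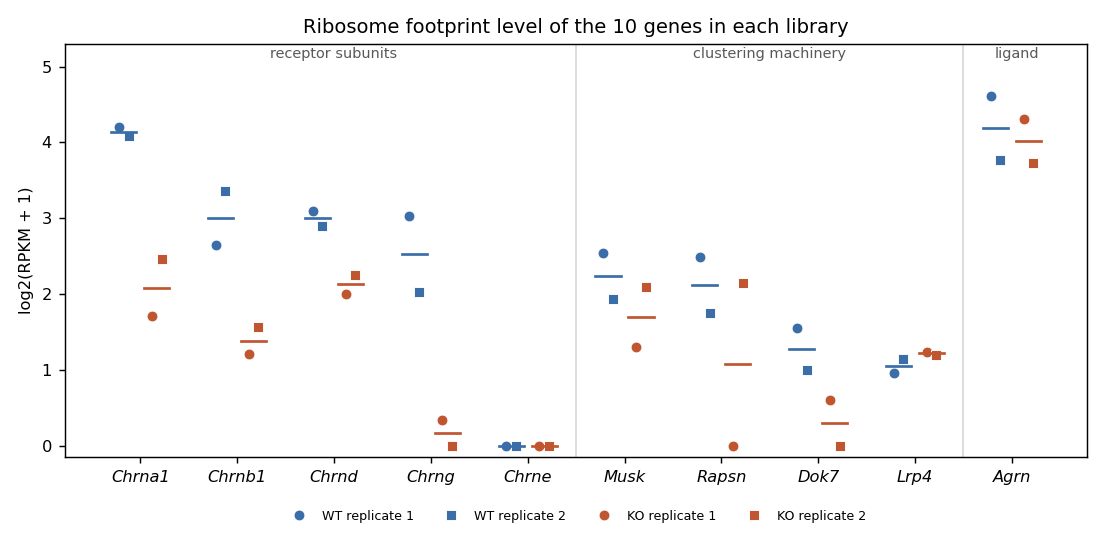
Each point is the footprint level of a gene in 1 library, as log2(RPKM + 1), with WT in blue, libraries labelled KO in orange, replicate 1 as a circle and replicate 2 as a square. Short lines are group means (n = 2). Chrna1, Chrnb1, Chrnd and Chrng have both KO points below both WT points, Chrne is at 0 throughout, and Agrn overlaps.

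The share of each subunit in the summed level is given next, without a test. Chrna1 made up 46.5% and 46.0% of the summed subunit RPKM in WT, against 33.0% and 44.1% under the KO label. Chrnd made up 20.2% and 18.6% in WT, against 44.0% and 36.8% under the KO label, so its share was higher there in each library. Chrng made up 19.2% and 8.81% against 3.87% and 0%. Chrnb1 overlapped, at 14.0% and 26.6% against 19.1% and 19.1%. In the libraries labelled KO these shares rest on 22 and 30 subunit reads in all.

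RPKM divides by the whole gene model, although footprints fall on the coding sequence. The coding sequence is 31.3% of the length used for Chrna1, 37.4% for Chrng, 47.4% for Chrnd and 59.4% for Chrnb1. Per kilobase of coding sequence, with the same scaling, Chrna1 had a mean of 53.4 in WT, well above Chrnd with 14.8, Chrng with 13.7 and Chrnb1 with 12.2. In WT replicates 1 and 2, Chrnd was at 15.9 and 13.6, Chrng at 19.2 and 8.18 and Chrnb1 at 8.83 and 15.5, so the order of these 3 subunits differed between the WT libraries. In the libraries labelled KO the order was Chrna1 with 10.8, Chrnd with 7.15, Chrnb1 with 2.75 and Chrng with 0.354. None of the 26-base windows in the coding sequences of the 5 subunits occurs in a transcript of another gene, so an exactly matching read of this length fits only 1 subunit.

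The sequences upstream of the subunit genes are shown because these are classical E-box genes. The part of the E-box in the lower levels was not tested. RefSeq (GRCm38.p6) gave a promoter for 7 of the 10 genes, which leaves Chrnd, Rapsn and Lrp4 without one. The 250 bases before each start site were searched on both strands. The E-box was searched as CANNTG, in which N is any base. Its form CAGCTG reads the same on both strands. The form CAGGTG, which is CACCTG on the other strand, was counted apart, and both forms are also matches to CANNTG. The N-box was searched as CCGGAA, which on the other strand reads TTCCGG. Only stretches outside annotated exons are printed, 5′ to 3′ on the strand of the gene, with E-box and N-box letters in capitals. They are chr2:73580339-73580588 (minus) for Chrna1, chr11:69795944-69796067 (minus) for Chrnb1, chr1:87205561-87205809 (plus) for Chrng and chr11:70619217-70619444 (minus) for Chrne.
Chrna1: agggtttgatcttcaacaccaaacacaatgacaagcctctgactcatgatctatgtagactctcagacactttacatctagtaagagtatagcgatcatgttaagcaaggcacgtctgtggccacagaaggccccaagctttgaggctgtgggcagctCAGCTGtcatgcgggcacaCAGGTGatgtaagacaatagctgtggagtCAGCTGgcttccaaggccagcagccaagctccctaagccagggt
Chrnb1: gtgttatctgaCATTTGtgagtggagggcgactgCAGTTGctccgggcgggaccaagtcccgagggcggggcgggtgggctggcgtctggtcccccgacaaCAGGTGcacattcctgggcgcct
Chrng: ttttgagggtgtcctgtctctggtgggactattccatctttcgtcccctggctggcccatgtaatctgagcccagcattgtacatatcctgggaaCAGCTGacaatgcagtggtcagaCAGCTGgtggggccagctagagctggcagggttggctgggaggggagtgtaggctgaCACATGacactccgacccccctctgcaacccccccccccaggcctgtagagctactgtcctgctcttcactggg
Chrne: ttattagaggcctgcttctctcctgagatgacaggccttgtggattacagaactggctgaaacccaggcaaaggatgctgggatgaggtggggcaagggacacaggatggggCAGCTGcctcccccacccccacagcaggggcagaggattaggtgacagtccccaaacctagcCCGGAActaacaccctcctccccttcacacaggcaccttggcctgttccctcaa

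Chrna1 and Chrng each held CAGCTG 2 times. In Chrna1 the matches began 92 and 44 bases before the start site, with a CAGGTG between them at 73. In Chrng they began at 155 and 132. The RefSeq start of Chrng lies inside the deposited gene model, which begins further upstream. Chrnb1 held no CAGCTG but a CAGGTG at 29. Chrne, which had no reads, held a CAGCTG at 138 and, alone among the 7 genes, an N-box at 76.

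Musk held a CAGCTG at 68, while Dok7 and Agrn held neither that motif nor CAGGTG or CACCTG at either of their start sites. Counted per start site, as for the promoters of all genes, CAGCTG was found in 4 of 9 and CANNTG in 7 of 9. Of all 32851 RefSeq promoters, 4271 held CAGCTG and 3952 the N-box in the same 250 bases, while 17.2% held CAGGTG on either strand and 66.2% held CANNTG. A match is a description of the letters and not a bound site.

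**Figure D2:**
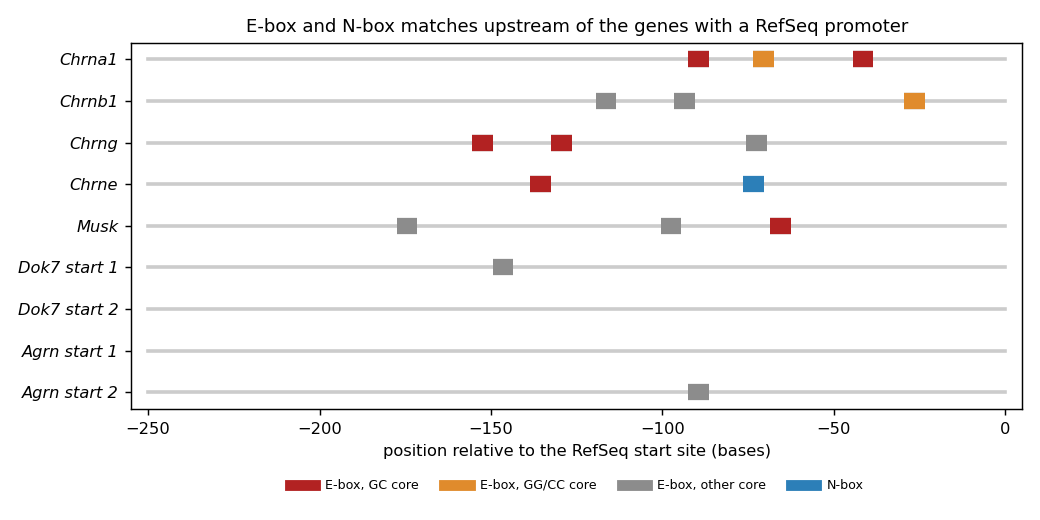
Horizontal lines are the 250 bases before each RefSeq start site, with position in bases on the axis, for the 7 genes with a promoter (2 start sites each for Dok7 and Agrn). Coloured blocks are matches to CAGCTG (red), CAGGTG or CACCTG (orange), other E-boxes (grey) and the N-box (blue). Chrna1 and Chrng carry 2 red blocks each, and Chrne carries the only blue one.

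Among the 4 genes of the clustering machinery the groups overlapped for Musk and Rapsn, while Dok7 was lower and Lrp4 higher without overlap. Musk, the agrin-responsive kinase, had 11 and 5 reads in WT, against 5 and 10 under the KO label. Its level was 4.83 and 2.81 RPKM in WT, against 1.46 and 3.28 RPKM under the KO label, so the groups overlapped. The log2 difference was -0.54 ± 0.48 (SE, limma), and -0.14 without KO replicate 1. Musk (ENSMUSG00000057280) lies on chromosome 4, from 58285960 to 58374303 on the plus strand.

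Rapsn, the receptor scaffold, had 5 and 2 reads in WT, against 0 and 5 under the KO label. The levels were 4.60 and 2.36 RPKM in WT, against 0 and 3.44 RPKM under the KO label. KO replicate 1 alone set the difference of -1.04 ± 0.80 (SE, limma), which was 0.03 without it. A count of 0 in that library allows up to 1.84 RPKM. Rapsn (ENSMUSG00000002104, chromosome 2, 91035620 to 91045729, plus strand) shares 1638 bases with the antisense lncRNA Gm13778, which had 0 reads.

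Dok7, the intracellular activator of MuSK, had 5 and 2 reads in WT, against 2 and 0 under the KO label. The levels were 1.94 and 0.993 RPKM against 0.516 and 0 RPKM. The groups did not overlap, but 9 reads in all give a pooled ratio of 5.59 with a counting interval from 1.06 to 55.1. Dok7 (ENSMUSG00000044716, chromosome 5, 35056766 to 35087839, plus strand) had a mean RPKM under 1 and was not among the genes tested.

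Lrp4, the agrin receptor, was the one gene whose values were higher in both libraries labelled KO. It had 6 and 6 reads in WT, against 13 and 11 under the KO label, or 0.947 and 1.21 RPKM against 1.36 and 1.30 RPKM. The difference was small, with a log2 value of 0.17 ± 0.59 (SE, limma) and a pooled rate ratio of 1.25 (counting interval 0.603 to 2.75). A change was not detectable at this depth. Lrp4 (ENSMUSG00000027253) lies on chromosome 2, from 91457511 to 91513779 on the plus strand, 412 kb from Rapsn. In its coding sequence 9 of 5690 windows of 26 bases also occur in Lrp2, Lrp5 or Lrp6, and the other members share none with another gene.

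Agrn, the ligand of the pathway, had by far the most reads of the 10 genes, with 131 and 55 in WT, against 159 and 92 under the KO label. Its level was 23.4 and 12.6 RPKM in WT, against 18.9 and 12.3 RPKM under the KO label. In both groups replicate 1 was the higher library, and the groups overlapped. The log2 difference was -0.16 ± 0.48 (SE, limma) and changed sign in 4 of 9 alternatives, among them 0.26 without WT replicate 1. The replicate block, also among the 9, cannot change a difference. With 437 reads behind it, the pooled rate ratio of 0.845 had a counting interval from 0.696 to 1.03. Agrn (ENSMUSG00000041936) lies on chromosome 4, from 156165290 to 156197488 on the minus strand.

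Genes were ordered by their mean level per kilobase of coding sequence. In WT Chrna1 (53.4 ± 3.23) came first and stood apart from Agrn (27.4 ± 11.7), which in turn stood apart from Chrnd (14.8 ± 1.66). Chrnd, Chrng (13.7 ± 7.78) and Chrnb1 (12.2 ± 4.74) overlapped, each with the next, and Chrnb1 stood apart from Musk (5.39 ± 2.01). Musk, Rapsn (5.07 ± 2.32) and Dok7 (3.67 ± 1.67) overlapped in the same way. Dok7 stood apart from Lrp4 (1.98 ± 0.344), the lowest of the genes with reads (all SD, n = 2). In the libraries labelled KO Agrn (23.7 ± 7.12) came first and stood apart from Chrna1 (10.8 ± 5.10), which overlapped Chrnd (7.15 ± 1.11). Neighbours from Musk through Chrnb1 and Rapsn to Lrp4 overlapped there, and Dok7, Chrng and Chrne were at the bottom. Per kilobase of the whole gene model, the RPKM of Agrn and Chrna1 overlapped in WT, so their order there depends on the length used. Without WT replicate 1 the log2 difference was -0.77 for Chrnd, -0.23 for Musk, -0.67 for Rapsn, -0.69 for Dok7 and 0.075 for Lrp4.

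**Figure D3:**
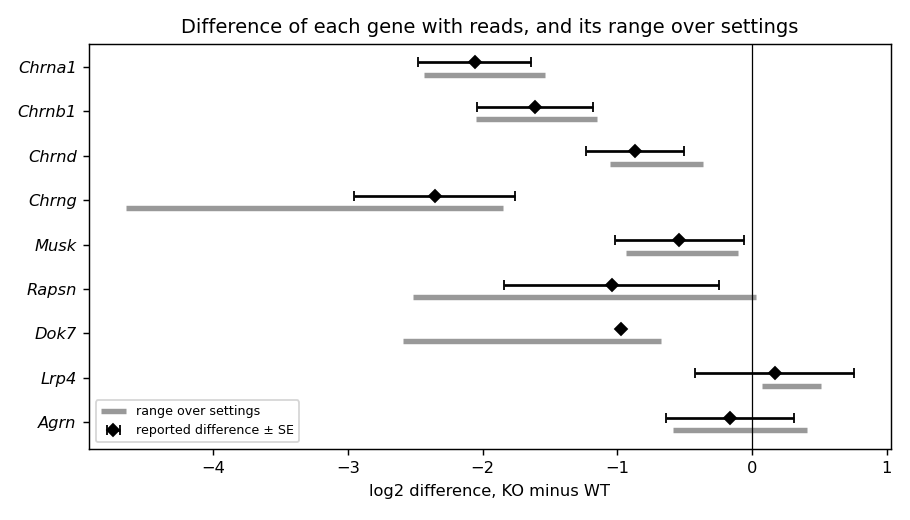
Diamonds are log2 differences, KO minus WT, on the log2(RPKM + 1) scale, with bars of 1 SE from limma (Dok7 was not tested and has none). Grey bars run from the lowest to the highest value over the settings tried, including other pseudocounts and scalings. The 4 subunits, Musk and Dok7 stay below 0, Lrp4 stays above 0, and Rapsn and Agrn reach both sides.

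Of the 10 genes, 5 were lower and 1 higher with no overlap between the groups (4 subunits and Dok7, and Lrp4). Over the 11363 genes tested, 20.3% were lower and 20.1% higher without overlap, or 40.4% in either direction. The median log2 difference of the 10 genes was -0.92, against 0.00026 for all genes tested. In limma, 0 of the 8 members tested passed an adjusted p-value of 0.05, with 0.106% of all genes called (0.0968% lower and 0.0088% higher). The smallest adjusted p-value of a member was 0.506 in limma. Among the members, 3 had an unadjusted p-value under 0.05 in limma, all of them lower, as did 7.32% of all genes in either direction and 4.46% in the lower one. These were Chrna1, Chrnb1 and Chrng. With voom on reads recovered from the RPKM, 2 members passed, Chrna1 (adjusted p-value of 0.0202) and Chrng (adjusted p-value of 0.0301), among 0.695% of all genes. Since the genes were picked with this contrast in view, nothing is read from these counts.

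Of 8 myoblast markers, 5 were lower and 1 higher in the libraries labelled KO without overlap, against 20.3% and 20.1% of all genes tested. Their summed level was 192 to 238 RPKM in WT and 115 to 127 RPKM in the libraries labelled KO. Before scaling, the list had 460 and 288 reads in WT, against 519 and 351 under the KO label, which overlapped. Myod1 stood at 129 ± 15.9 RPKM in WT and 64.2 ± 22.1 RPKM in the libraries labelled KO (SD, n = 2). Its reads before scaling overlapped, at 157 and 103 against 82 and 120. Myf5 was at 6.37 and 4.08 against 1.06 and 0 RPKM, Pax7 at 8.49 and 3.62 against 0.941 and 1.48 RPKM, and Des, the muscle intermediate filament, at 46.0 and 40.1 against 13.8 and 21.4 RPKM. Chodl was the other lower marker, with 7 and 2 reads in WT, against 0 and 1 under the KO label. Vcam1 was higher, at 5.42 and 11.7 against 20.01 and 12.98 RPKM, while the groups overlapped for Itga7 and Cdh15. In limma, 0 of the 7 tested myoblast markers were called after adjustment, and 3 had an unadjusted p-value under 0.05, as did 7.32% of all genes. The part of these markers in the lower subunit levels was not tested. Relative to Myod1, the subunit sum was 0.267 and 0.295 in WT, against 0.141 and 0.128 under the KO label. Relative to Des it was 0.813 and 0.865 against 0.496 and 0.478. The groups did not separate relative to Pax7, at 4.40 and 9.58 against 7.28 and 6.92. Relative to Myog it overlapped too, at 0.411 and 8.15 against 9.29 and 6.18, but these ratios rest on 82 and 3 Myog reads in WT and 1 and 2 under the KO label. Over the 8 myoblast markers, the ratio was lower without overlap for 5, overlapped for 1, and could not be formed for 2. Of the 5, Cdh15 had only 3 reads in WT replicate 2 and 4 in KO replicate 1. Vcam1 was itself higher under the KO label, so a lower subunit sum alone gives a lower ratio. Itga7 itself overlapped between the groups. The 2 without a ratio, Myf5 and Chodl, had a library labelled KO at 0. Their pooled rates were 9.58-fold and 14.4-fold lower under the KO label, on 14 and 10 reads in all. The subunit ratios were chosen after the values were seen.

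The 12 markers of differentiating muscle summed to 323 and 75.8 RPKM in WT replicates 1 and 2. Under the KO label they summed to 43.7 and 44.2 RPKM. Of these markers 6 were lower without overlap, as were 20.3% of all genes tested. The 6 include Ckm, with 3 and 4 reads in WT, against 0 and 1 under the KO label. They also include Myog, at 91.0 and 4.26 RPKM in WT, against 0.738 and 1.66 RPKM under the KO label. WT replicate 2 thus lay above both libraries labelled KO for the sum of this list, as it did for the subunit sum. Acta1 alone made up 41.5 RPKM of the list sum in WT replicate 2, and 30.1 and 25.8 RPKM under the KO label. Not every marker shared this order, as Tnnt1 was at 1.93 against 2.50 and 2.81 RPKM. For Myog, though counted as lower above, 3 reads or fewer in these 3 libraries give no order. The part of differentiation in the subunit levels was not tested.

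Markers of other cell types also had reads. The background for the counts below is 20.3% of all genes tested lower and 20.1% higher without overlap. Fibroblast markers, 8 in all with Dcn the highest, summed to 400 to 609 RPKM in WT and 468 to 977 RPKM in the libraries labelled KO, and the groups overlapped. Without overlap, 2 of these markers were higher (Pdgfra and Lum) and 1 lower (Thy1). Endothelial markers summed to 99.8 to 106 RPKM in WT and 112 to 139 RPKM in the libraries labelled KO, with 4 of 5 markers higher without overlap. Among the 4, Pecam1 barely differed, at 21.8 and 21.1 against 21.95 and 22.5 RPKM. Immune markers summed to 28.4 to 38.5 against 25.0 to 25.9 RPKM, with 2 of 5 lower and 2 higher without overlap. Schwann cell markers, which bear on Agrn since glia also make agrin, summed to 59.0 and 17.9 RPKM in WT, against 36.3 and 25.9 RPKM under the KO label, with 0 of 5 apart. Their highest library was WT replicate 1, as it was for Agrn. The part of these cells in the levels was not tested. Of the 5 nerve terminal markers, Chat and Slc5a7, which define cholinergic neurons, had 0 reads, and the list summed to at most 0.695 RPKM in any library.

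**Figure D4:**
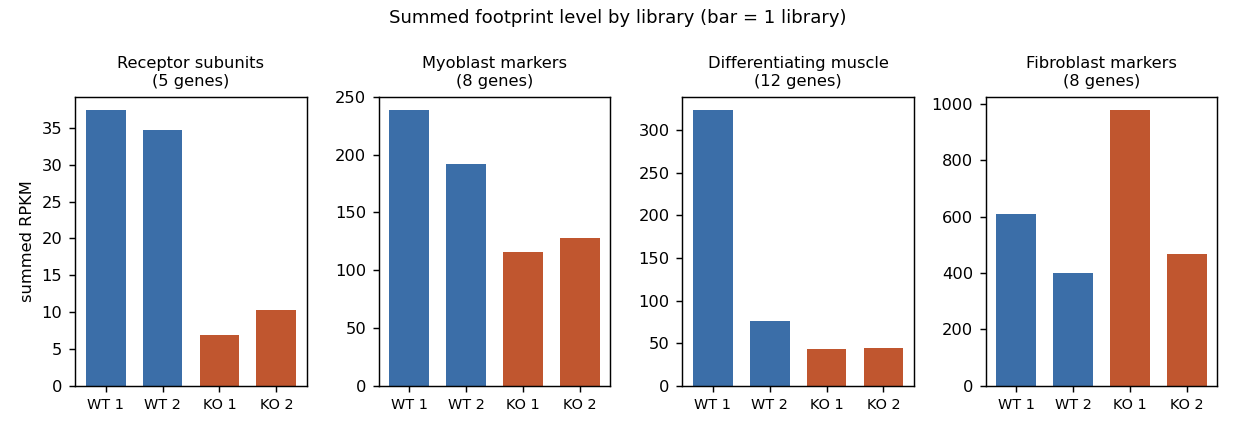
Bars are summed RPKM of a gene list in 1 library each (WT blue, libraries labelled KO orange), on axes that start at 0 and differ in scale between panels. Receptor subunits are at 37.4 and 34.7 RPKM in WT, against 6.85 and 10.2 RPKM under the KO label. The differentiating muscle list is at 323, 75.8, 43.7 and 44.2 RPKM in WT replicates 1 and 2 and KO replicates 1 and 2.

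The wider pathway was read from a list of 78 other genes. Of these, 66 had reads and 50 had a mean RPKM of at least 1 and were tested. In limma 0 of the 50 passed an adjusted p-value of 0.05 (smallest 0.629), 1 had an unadjusted p-value under 0.05, and voom called 0. Without overlap between groups, 10 were lower and 11 higher in the libraries labelled KO, close to the background of 20.3% and 20.1%. The median log2 difference was -0.10 for these 50 genes. The range ran from -0.85 to 1.59.

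Nicotinic subunits outside the muscle receptor were nearly absent, with 8 of 11 at 0 reads and 1 read in each of 2 libraries for Chrna7, Chrnb2 and Chrnb4. In the cleft, the acetylcholine-splitting enzyme Ache had 5 and 0 reads in WT, against 1 and 2 under the KO label, and its collagen tail Colq had 0. Of the synaptic basal lamina, Lamb2 was at a log2 difference of 0.26 ± 0.38 and Nid2 at -0.77 ± 0.47 (SE, limma). Of the scaffold that shares the postsynaptic membrane, Utrn was at 0.24 ± 0.46 and Dag1 at -0.31 ± 0.41 (SE, limma). Adjusted p-values of these 4 genes ran from 0.697 to 0.873 in limma.

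The 8 pathway genes with the largest differences among those with at least 20 reads are given next, none of which passed the test. Gmppb, an enzyme of sugar nucleotide supply whose loss causes a congenital myasthenic syndrome, had 3 and 1 reads in WT and 13 and 14 under the KO label, or 1.79 and 0.762 RPKM against 5.15 and 6.22 RPKM. Its adjusted p-value was 0.629 in limma. Gabpa, an ETS factor of the N-box, was at 5.25 and 7.46 RPKM in WT, against 12.4 and 12.6 RPKM under the KO label (adjusted p-value of 0.675 in limma). The small GTPases Rac1 and Cdc42, which link MuSK to actin, had log2 differences of 0.89 ± 0.49 and 0.85 ± 0.42 (SE). On the other side were Sspn (-0.85 ± 0.46), Hdac4 (-0.81 ± 0.48), Src (-0.80 ± 0.44) and Dvl1 (-0.78 ± 0.61), of which Dvl1 overlapped between groups. Hdac4, which in denervated muscle takes part in raising subunit expression, was at 5.98 and 2.55 RPKM in WT, against 1.88 and 1.80 RPKM under the KO label.

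**Figure D5:**
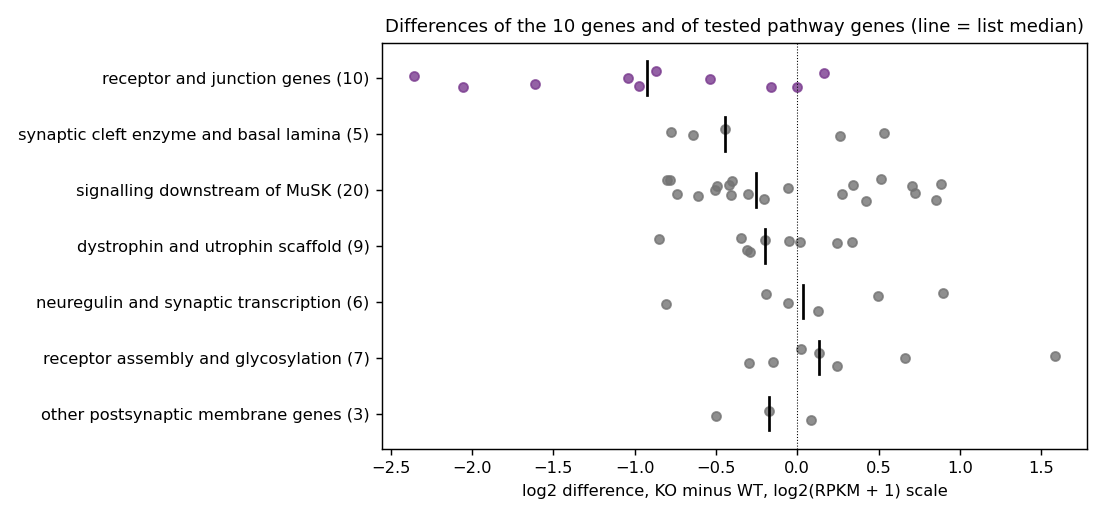
Points are log2 differences, KO minus WT, on the log2(RPKM + 1) scale, for the 10 genes (purple) and for the tested genes of 6 pathway lists (grey, number of genes in brackets), and lines are list medians. The 3 lowest points are Chrng, Chrna1 and Chrnb1, and the pathway lists spread on both sides of 0.

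Hypusinated eIF5A helps ribosomes through runs of prolines, so the coding sequences were searched for them. At least 3 prolines in a row occur in 6 of the 10 proteins (Chrna1, Chrnb1, Chrne, Musk, Dok7 and Agrn), and none has a run above 3. Of 9878 tested genes with a coding sequence, 25.8% have such a run. Among the detected subunits Chrna1 (log2 difference of -2.06) and Chrnb1 (-1.61) have a run, and Chrng (-2.36) and Chrnd (-0.87) have none. Agrn, at -0.16, has one. The part of these runs in the differences was not tested. Coding GC content ran from 51.7% for Chrna1 to 62.0% for Dok7, with a median of 53.2% over the genes tested. When trends on coding GC and coding length had been taken out of every library, the log2 differences were -2.20 for Chrna1, -2.12 for Chrng, -1.64 for Chrnb1 and -0.78 for Chrnd.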

How the data were processed

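Ribo-seq was performed on 4 libraries, 2 WT and 2 labelled KO. According to the methods and the submitters' processing notes, low-quality, adapter, rRNA and tRNA reads were removed, the rest were aligned with Tophat2 to mm10 with Ensembl 97 gene models, and HTSeq counted reads per gene. Tool versions, strand setting and handling of multiply mapped reads are not given in the sources used here. Labels and methods give different times for the cycloheximide step.

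The values deposited by the authors are RPKM. RPKM multiplied by gene length gave whole reads for 100.0% of values (within 1e-06 of a read), in steps set by denominators of 471136 to 906990 reads. These equalled median-of-ratios size factors (0.713 to 1.37) times the geometric mean of the library totals, so a change shared by most genes is not visible. Intervals and the floor of 3 reads cover counting error only, since reads carry no molecular identifiers.

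limma 3.58.1 (R 4.3.3, mean-variance trend, group as the only term) was run on log2(RPKM + 1) over the 11363 genes whose mean RPKM reached 1. Fold changes of low genes are understated on this scale. Two-sided p-values were computed with Benjamini-Hochberg adjustment over all genes tested. With 2 against 2 libraries an exact permutation test cannot give a p-value under 0.333. Coding features came from the longest coding sequence per gene in GENCODE vM21 (GRCm38).

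The members and lists were chosen with earlier results of these data known. Named were the 10 members, Eif5a, Myod1, Myog, pathway genes past an adjusted p-value of 0.05 filled up to 8 with the largest differences among those with at least 20 reads, and the 5 protein-coding genes with at least 40 reads nearest in pattern to the member with most reads. Other pathway genes named, and all markers named from the lists, were chosen after their values were seen. The alternatives were another pseudocount, other filters, total-read scaling, voom, a replicate block, removal of GC and length trends, and leaving out each library.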

Additional observations from a re-analysis of the deposited data

How the results depend on the processing

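The median log2 difference of the 10 genes was -0.92. It was -1.54 with a pseudocount of 0.1, which lets low genes move further, -0.55 on total reads and -1.11 to -0.60 with a library left out. It has no value with voom or with trends removed, where Chrne and Dok7 are not fitted. Of 79 alternative values for single members, 64 moved by less than the spread between replicates and 15 by more. With 2 libraries in a group, leaving out a library cannot move a difference by more than that spread. A replicate block cannot move it at all. Values under those settings therefore say nothing on stability. All 15 came from the other settings (pseudocount, total reads, voom, or trends removed). Chrna1 ranged from -2.44 to -1.54, Chrnb1 from -2.05 to -1.15, Chrnd from -1.05 to -0.37, Chrng from -4.65 to -1.85, Dok7 from -2.59 to -0.68, Musk from -0.94 to -0.10 and Lrp4 from 0.075 to 0.51, none changing sign. Rapsn (-2.51 to 0.03) and Agrn (-0.59 to 0.41) did.

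The 12 genes called in limma became 0 in these alternatives: a pseudocount of 0.1, no filter, the stricter filter (mean RPKM of 5 or more), total reads, GC and length trends removed, and each left-out library, where the lone library of a group is assumed to vary like the others. The number past an unadjusted limma p-value of 0.05 there was 430 to 1863. voom called 79, of which 0 were among the 12. The cause was not tested. Pathway genes called stayed at 0 under each alternative. The 4592 genes whose groups did not overlap became 2496 under the stricter filter, where fewer genes were tested, and 7056 to 8564 when 1 library was omitted, where 1 value must lie outside the other 2.

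With the replicate number as a block, 0 genes were called (827 with an unadjusted p-value under 0.05 in limma). The median of the members stays at -0.92 by design, since a balanced block cannot change a group difference. The deviations of same-numbered libraries correlated at 0.12 over 6528 genes, and the labels give the number no meaning. The members had 9 to 437 reads over the 4 libraries, apart from Chrne with 0.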

Other observations

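Agrn, the member with the most reads, was compared with 6527 other protein-coding genes with at least 40 reads for likeness of pattern, as the root mean square distance between the 4 centred log2(RPKM + 1) values. The nearest genes were Myo5a (distance of 0.030), an unconventional myosin that carries vesicles, Nsa2 (0.033), a factor of ribosome assembly, Zmynd8 (0.048), a chromatin reader, Smarcd2 (0.051), a subunit of SWI/SNF remodelling complexes, and Spata13 (0.055), an exchange factor for small GTPases. In each of them, as in Agrn, replicate 1 was the higher library of both groups. Myo5a, for example, was at 6.16 and 2.87 RPKM in WT and 4.69 and 2.68 RPKM in the libraries labelled KO. Likeness over 4 libraries that share depth and composition is a description of these libraries.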
